A study of Homo sapiens with 3 samples.

Results

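SMAD2/3 peaks near 7 WNT ligand genes (WNT7A, WNT7B, WNT5A, WNT4, WNT11, WNT9A and WNT10A) and near AXIN2 were read from ChIP-seq of MCF10A MII cells, at 1.5 h and at 16 h after addition of 5 ng/ml TGFβ3. For each of these 8 genes, every peak of both lists was taken that overlapped the hg19 gene body, given to the nearest kb, or the 100 kb on either side. These windows held 8 of the 2206 peaks listed at 1.5 h and 8 of the 3280 listed at 16 h. MCF10A MII is a single H-Ras transformed line of human breast epithelial cells, so both libraries carry that transformation. The antibody used for precipitation binds SMAD2 as well as SMAD3, and there was 1 library at each time, with no replicate. The only other sample, input DNA of MCF10A MII, was not analysed here, and the lists hold no untreated SMAD2/3 profile. Scores are the authors' own values per peak, and read depth is unknown, so a site missing from a list may lie just under the authors' threshold there.

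WNT ligands are secreted, lipid-modified glycoproteins that bind Frizzled receptors. In the β-catenin branch of the pathway, ligand binding with the co-receptors LRP5 and LRP6 stabilises β-catenin, which then acts on genes together with TCF/LEF factors. AXIN2 is a scaffold of the complex that degrades β-catenin and is itself a target of the pathway, so it acts as a feedback inhibitor. TGFβ receptors phosphorylate SMAD2 and SMAD3, which enter the nucleus with SMAD4 and bind DNA beside other factors.

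WNT9A, WNT7A and WNT7B held peaks at both times. WNT5A, WNT4, WNT11, WNT10A and AXIN2 held none at either time. Windows with a peak thus numbered 3 of 8 (37.5%, 95% exact binomial interval 8.52 to 75.5%, counting error only) at each time. Of 12849 fixed tiles of 230 kb laid over the span of the listed peaks, 10.6% held a 1.5 h peak, 19.1% held a 16 h peak, 4.94% held both and 75.3% held neither. The tiles are not matched to genes, and the 8 genes were chosen with earlier results of these lists known, so these shares describe the setting and test nothing. Per Mb, the windows held 4.30 peaks at each time, against 0.768 over the span of the whole list at 1.5 h and 1.12 at 16 h. All of these window peaks came from 3 of the 8 windows, and their density also tests nothing. With neighbours under 500 bp apart merged, they made 5 sites at 1.5 h and 6 at 16 h.

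**Figure D1:**
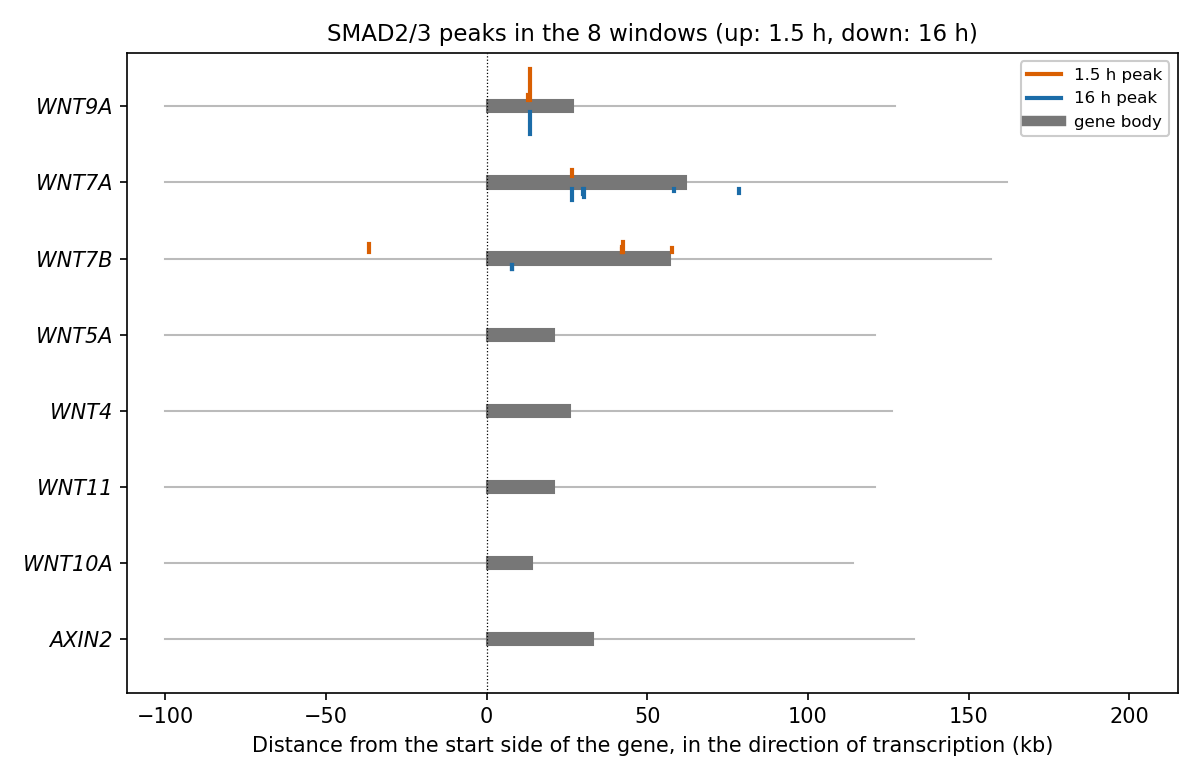
Each row is 1 gene, with its body as a grey bar and its window as a thin line. The x axis gives the distance in kb from the start side of the gene in the direction of transcription. Strokes above the line are 1.5 h peaks and strokes below it are 16 h peaks, and longer strokes stand for higher scores on a log scale. Peaks appear in the rows of WNT9A, WNT7A and WNT7B, and the other 5 rows are empty.

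No window peak lay at the start side of any of the 8 genes. Alternative starts and the starts of neighbouring genes were not analysed here. The closest was a 16 h peak 7.82 kb downstream of the start side of WNT7B. Of the 16 window peaks, 13 lay in a gene body (6 of 8 at 1.5 h and 7 of 8 at 16 h). With adjoining peaks under 500 bp apart merged, 3 of 5 sites at 1.5 h and 5 of 6 at 16 h did. Gene bodies made up 19.6% of the window length of WNT9A, WNT7A and WNT7B. The share of all listed peaks that lie in gene bodies was not analysed here. Whether these positions are exonic or intronic was not analysed here.

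The sequence just around the start was available for 5 of the 8 genes from RefSeq (GRCh38.p14, from 250 bases before to 50 bases after the start), and 3 of these windows are shown. Those of WNT9A and WNT7A belong to genes that held peaks, and that of WNT10A to a gene that held none but has the same SMAD motif letters as WNT9A. Capitals mark the motif GGCGCC, and all other bases are in lower case.
WNT9A, chr1:227947883-227948182, minus strand: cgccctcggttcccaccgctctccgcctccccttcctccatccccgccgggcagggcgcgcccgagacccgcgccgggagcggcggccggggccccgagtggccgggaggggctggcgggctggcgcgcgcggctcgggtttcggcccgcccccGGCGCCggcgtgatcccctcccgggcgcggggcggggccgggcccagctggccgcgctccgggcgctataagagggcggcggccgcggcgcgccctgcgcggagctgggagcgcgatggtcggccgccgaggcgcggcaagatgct
WNT7A, chr3:13880022-13880321, minus strand: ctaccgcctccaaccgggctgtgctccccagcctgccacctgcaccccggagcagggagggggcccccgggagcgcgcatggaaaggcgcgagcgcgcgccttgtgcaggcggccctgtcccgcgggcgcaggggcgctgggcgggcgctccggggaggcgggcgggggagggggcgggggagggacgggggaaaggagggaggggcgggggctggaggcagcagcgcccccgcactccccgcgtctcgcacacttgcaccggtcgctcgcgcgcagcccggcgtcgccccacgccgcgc
WNT10A, chr2:218880602-218880901, plus strand: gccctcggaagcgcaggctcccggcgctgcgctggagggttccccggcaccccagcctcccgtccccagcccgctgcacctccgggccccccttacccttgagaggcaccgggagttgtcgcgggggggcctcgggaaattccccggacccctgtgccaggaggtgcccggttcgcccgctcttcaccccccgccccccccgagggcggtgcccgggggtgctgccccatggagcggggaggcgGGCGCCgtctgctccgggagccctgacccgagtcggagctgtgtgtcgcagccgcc

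The start windows shown are rich in G and C, with 83.0% in WNT9A, 80.3% in WNT7A and 76.7% in WNT10A. The median was 58.7% over 35116 RefSeq promoters. Of the windows not shown, that of WNT4 had 85.7%, while those of WNT5A, with 56.3% and 63.7%, were nearer the median. GGCGCC, a GC-rich motif bound by SMAD3 and SMAD4, stood once in WNT9A, where it began 96 bases before the start, and once in WNT10A. It was present in 19.2% of all promoters. The SMAD motifs CAGACA (in 16.9% of all promoters) and GTCTAGAC (0.202%), the AP-1 motif TGANTCA (7.71%) and the TCF/LEF motif CTTTGAT (2.62%) were in none of the windows of these 5 genes, WNT5A and WNT4 included, on either strand. A motif match is a description of letters, and the absence of a match covers only these windows and these exact letters. Shorter forms such as CAGAC were not searched over all promoters. Its reverse complement, GTCTG, can be read in the WNT10A window right after GGCGCC, and also in the WNT4 window, which has no GGCGCC. How common GTCTG is among promoters was not analysed here.

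WNT9A, a ligand known from joint formation in the mouse, held the highest-scoring peaks of the 8 windows at both times. At 1.5 h a peak of 978 bp on chromosome 1, from 228122147 to 228123124, scored 664.6 and ranked 16 of 2206. It was also the 13th widest peak of that list. At 16 h a peak of 393 bp at 228122416 to 228122808 had a score of 285.79 and rank 56 of 3280. Both lay in the gene body, with midpoints 13.4 kb downstream of the start side. The 16 h peak lay wholly inside the 1.5 h peak, and the midpoints were 23.5 bp apart. Of the 544 16 h peaks that overlapped a 1.5 h peak, 110 (20.2%) lay wholly inside one in this way, and midpoints over all 612 overlapping pairs were a median of 74.5 bp apart. A second 1.5 h peak of WNT9A, 123 bp wide with a score of 66.47, began at 228123159 after a gap of 34 bp, on the side towards the start. It overlapped no 16 h peak, the nearest being 350 bp away. With peaks under 500 bp apart merged, WNT9A held 1 site at each time.

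**Figure D2:**
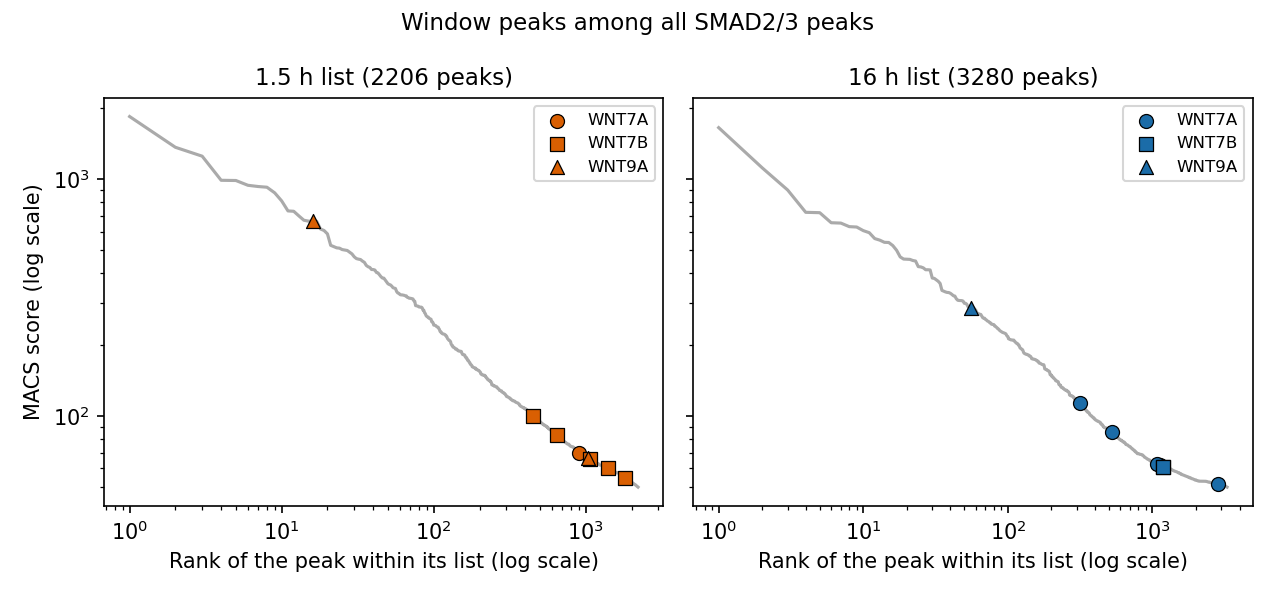
Score of every peak against its rank within its own list, both on log scales, for 1.5 h on the left and 16 h on the right. The grey line is the whole list and the symbols are the peaks of WNT7A, WNT7B and WNT9A. The main WNT9A peak stands at rank 16 of 2206 at 1.5 h and rank 56 of 3280 at 16 h, ahead of all other window peaks.

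The other window peaks lay below the main WNT9A peaks in their lists, over a broad range of scores. A score of 100 or more was reached by 1 of 8 window peaks at 1.5 h, the main WNT9A peak, against 20.1% of that list. At 16 h it was reached by 2 of 8, the WNT9A peak and 1 WNT7A peak, against 11.5% of the list. Scores were above the list's median for 6 of 8 window peaks at 1.5 h and for 7 of 8 at 16 h. The median score of window peaks was 68.2 at 1.5 h and 62.1 at 16 h, against 64.9 and 56.2 over the whole lists, whose lowest scores were 50.02 and 50.

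WNT7A, a ligand known from limb and reproductive tract patterning in the mouse, had a single peak at 1.5 h but 5 at 16 h. At least 5 peaks at 16 h were found in 0.163% of the tiles. The cut of 5 was set by the count seen here. The tiles of 230 kb are shorter than this window of 262 kb, and adjoining peaks count separately. The share therefore tests nothing. The 1.5 h peak, on chromosome 3 at 13895467 to 13895565, scored 70 and ranked 901 of 2206. It overlapped the highest of the 16 h peaks, at 13895484 to 13895699, by 82 bp. That 16 h peak scored 113.1 and ranked 316 of 3280, above 90.4% of its list. The midpoints of the pair were 75.5 bp apart, 26.5 and 26.4 kb downstream of the start side.

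The remaining 4 WNT7A peaks overlapped no 1.5 h peak, like 83.4% of all 16 h peaks. An adjoining pair at 13891730 to 13891966 and 13891970 to 13892103 scored 85.7 and 62.45 with 3 bp between them. This pair lay about 30.0 kb downstream of the start side, and its nearer member was 3.36 kb from the 1.5 h peak. A weak peak at 13863689 to 13863837 scored 51.39, near the bottom of the list, and lay 58.2 kb downstream of the start side near the end of the gene. The last, at 13843372 to 13843618, scored 61.81 and lay 16.4 kb beyond the end of the gene body. With neighbours under 500 bp merged, WNT7A held 1 site at 1.5 h and 4 at 16 h.

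WNT7B, a ligand known from lung and kidney development in the mouse, had 5 early and 2 late peaks, and none of these 7 overlapped a peak of the other time. Peaks without such an overlap made up 74.7% of the whole list at 1.5 h and 83.4% at 16 h. At least 5 peaks at 1.5 h were found in 0.342% of the tiles. Here too the cut was set by the count seen, the window is longer at 257 kb, and adjoining peaks count separately. This share also tests nothing. At 1.5 h, 3 adjoining peaks stood on chromosome 22 at 46330483 to 46330676, 46330699 to 46330813 and 46330826 to 46331002, with gaps of 22 and 12 bp. Their scores were 99.64, 54.91 and 65.81, and their midpoints lay 42.1 to 42.4 kb downstream of the start side. Another 1.5 h peak at 46409672 to 46409835 scored 82.75 and lay 36.7 kb before the gene. The fifth, at 46315135 to 46315275, scored 60.33 and lay 725 bp beyond the end of the body, whose limits are given only to the nearest kb.

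The 16 h peaks of WNT7B lay at another place. They stood at 46364937 to 46365058 and 46365091 to 46365260, 32 bp apart, with scores of 60.85 and 60.89 and midpoints 8.0 and 7.8 kb downstream of the start side. The nearest 1.5 h peak was 33.9 kb away. With neighbours merged, WNT7B held 3 sites at 1.5 h and 1 at 16 h.

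**Figure D3:**
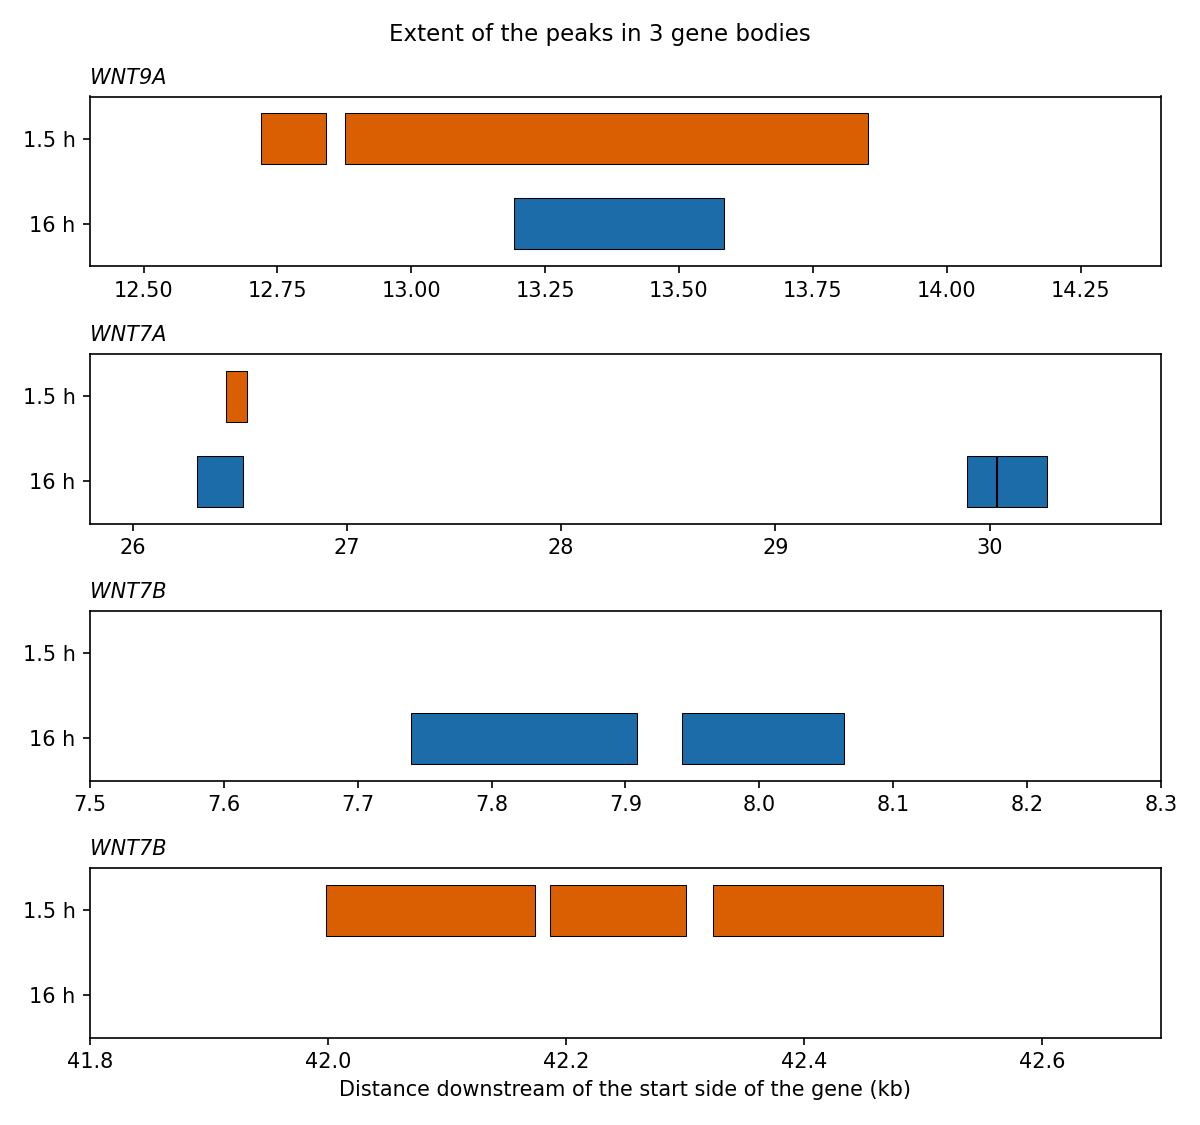
Extent of the gene-body peaks of WNT9A, WNT7A and WNT7B, with distance downstream of the start side in kb on the x axis and the 1.5 h and 16 h lists as separate rows. The weak WNT7A peak 58.2 kb downstream is not drawn. WNT9A and WNT7A each show 1 place with overlapping peaks, whereas the WNT7B panels show the 16 h pair and the group of 3 1.5 h peaks at separate places.

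Over the 3 genes, 2 of 8 peaks listed at 1.5 h were shared with 16 h (25.0%, exact binomial interval 3.19 to 65.1%), against 25.3% of all 1.5 h peaks. Likewise 2 of 8 peaks listed at 16 h were shared with 1.5 h (25.0%, same interval), against 16.6% of all 16 h peaks. Several of these peaks adjoin each other and are not independent, so the intervals describe the counts and test no difference from the lists. In both overlapping pairs 1 peak was much the wider, and the overlap covered 40.2% of the 1.5 h peak of WNT9A and 38.0% of the 16 h peak of WNT7A. Where at least 50% of both peaks had to be covered, none of the window peaks was shared. The share of all listed peaks that pass this stricter rule was not analysed here, so the 0 says nothing particular about these windows.

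The ligand genes without a peak differed in how far away the nearest one was. WNT5A, a ligand best known for β-catenin-independent signalling through ROR2, had its nearest 16 h peak 137 kb from the gene body, with a score of 50.9, and its nearest 1.5 h peak 2435 kb away. WNT11, another ligand linked to β-catenin-independent signalling, had its nearest 16 h peak at 140 kb, with a score of 50.12, and its nearest 1.5 h peak at 3343 kb. Both 16 h scores are close to the lowest that the list holds. The WNT5A body used here spans 21 kb, whereas the RefSeq gene spans 39.5 kb on GRCh38, so its distances depend on which transcripts are counted. To a smaller degree the same limit holds for WNT11 (21 against 24.4 kb) and WNT10A (14 against 19.8 kb).

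WNT10A, a ligand known from tooth and skin appendage development, had a 16 h peak 191 kb away with a score of 50.9. Its nearest 1.5 h peak was 380 kb away on chromosome 2, from 220138632 to 220139219. It scored 387.05, ranked 45 of 2206 and overlapped a 16 h peak. WNT4, which acts in mammary side-branching in the mouse, had its nearest peak at both times on chromosome 1 about 604 kb from the gene body. That site scored 78.8 at 1.5 h (rank 706 of 2206) and 192.63 at 16 h (rank 123 of 3280). The nearest peaks to AXIN2, the pathway's own feedback inhibitor, were 536 kb away at both times and overlapped each other. Their scores were 58.23 at 1.5 h (rank 1545 of 2206) and 51.76 at 16 h (rank 2692 of 3280).

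The farthest peak inside a window was the WNT7B peak 36.7 kb before the gene. Just outside, WNT9A had a 1.5 h peak 115 kb from its body with a score of 88.02 and a pair at 157 kb with scores of 57.64 and 74.49. None of these overlapped a 16 h peak, like 74.7% of all 1.5 h peaks.

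A position in a window does not tie a peak to the WNT gene. By the order of protein-coding genes in RefSeq, WNT9A lies between PRSS38 and WNT3A, which encodes another WNT ligand. WNT7A lies between FBLN2 and CHCHD4, and WNT7B between ATXN10 and PPARA. Among the genes without a peak, WNT10A adjoins another ligand gene, WNT6, and WNT4 adjoins CDC42, which encodes a small GTPase of the cytoskeleton. No expression was measured in this series, so the level of these genes after TGFβ3 was not analysed here.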

How the data were processed

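SMAD2/3 ChIP-seq peak lists of MCF10A MII cells at 1.5 h and 16 h after TGFβ3 were used, with 1 library per time. Samples were grouped by the treatment label. The authors deposited hg19 intervals with a MACS score per peak. Per the submitters' processing notes, the tools were MACS 1.4.2, Bowtie 1.1.0 and Picard. Their settings, any use of the input as control, and depth were not given in the sources. Scores were used only to describe and rank peaks within a list.

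Starts were converted to 1-based positions. Peaks sharing at least 1 bp were called shared. The strand came from RefSeq promoters for WNT7A, WNT5A, WNT4, WNT9A and WNT10A, and from general knowledge for WNT7B, WNT11 and AXIN2. RefSeq gene order, sequence and motifs are from GRCh38.p14 and no coordinate was converted. Intervals are 95% exact Clopper-Pearson intervals. No test between times was possible. Counting and overlap code was tested on simulated lists. All 8 genes are named by rule, with every peak. Genes and windows were chosen with earlier results of these data known. Other WNT pathway genes and motifs in peaks need hg19 annotation and sequence and were not analysed here. Python 3.11.15, numpy 2.4.6, pandas 2.3.3, scipy 1.17.1 and matplotlib 3.10.9 were used. Alternatives were 2 score minimums, near-equal list lengths, merged neighbours, 3 flanks and 2 overlap rules. For near-equal lengths, 16 h peaks scoring at least 52.99 were kept, which left 2324 against 2206 at 1.5 h.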

Additional observations from a re-analysis of the deposited data

How the results depend on the processing

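Of 46 recomputed counts, 37 stayed within 1.5 times the reported one and 9 moved further. Some could not move, such as 1.5 h peaks and windows when only the 16 h list was cut. Likewise, a flank of 50 kb could drop no peak, as the farthest lay 36.7 kb outside a body. The 37 are thus no measure of robustness. With a score of at least 100, 1 peak at 1.5 h and 2 peaks at 16 h remained in the windows, 1 peak of each list was shared, and 1 window held a 1.5 h peak. At that score 2 windows held a 16 h peak, against 3 before, which counts as within 1.5 times. Merging neighbours under 500 bp apart left 5 peaks at 1.5 h. An overlap of 50% of both peaks left 0 shared peaks at 1.5 h and 0 at 16 h, with no share over all peaks computed under that rule. A flank of 200 kb gave 6 windows with a 16 h peak, adding WNT5A, WNT11 and WNT10A. No paired analysis was possible because 1 library stands for each time, and none could be left out. Depth is unknown, so whether a site listed at 1 time was unbound at the other was not tested.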
